A study of Homo sapiens with 19 samples.

Results

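The genes described are 28 members of cholesterol synthesis, sterol transport and their control by SREBP2 in MDA-MB-231 cells, a triple-negative breast cancer line with mesenchymal features. They were taken by gene symbol from a fixed list. All 28 were listed in the table of siSCIRT libraries, which lists 26955 genes, and in the table of siEZH2 libraries, which lists 28870 genes. The table of culture conditions lists 19021 genes and holds 27 of the 28, without ABCG1. Every listed member passed the filter on low values, a mean of at least 10 normalized counts. By role the list holds 19 synthesis enzymes, 4 genes of SREBP2 control, 2 of sterol transport, 2 of efflux and LPIN1, a lipid enzyme outside the pathway.

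RNA-seq was made from 19 libraries in 8 groups. In the culture experiment, cells grew adherent in DMEM with fetal calf serum, or as spheres for 16 h or 5 d (n = 2 each). Sphere medium was DMEM/F12 with B27, EGF and FGF in non-adherent plates. In the RNAi experiments, siRNA was given at plating and RNA was taken after 48 h in sphere medium. The groups were siSCIRT 1 and siSCIRT 2, against the long non-coding RNA SCIRT, and their control siNC (n = 3 each), and siEZH2, against the histone methyltransferase EZH2, with a siNC of its own (n = 2 each). All groups are the same cell line, so the cultures differ in medium, serum and attachment together, and these cannot be told apart.

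Cells make cholesterol from acetyl-CoA through mevalonate, farnesyl diphosphate, squalene and lanosterol. When sterols in the endoplasmic reticulum are low, SCAP carries SREBP2 to the Golgi, where it is cut, and the released factor activates genes of synthesis and uptake. INSIG1 and INSIG2 hold SCAP back when sterols are high. Oxysterols activate the LXR receptors, which raise the efflux pumps ABCA1 and ABCG1. INSIG1 is itself a known SREBP target, so it often moves with the enzymes.

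Promoter sequence is shown for HMGCS1 and FDPS, which had large falls in 16 h spheres, for the regulator SREBF2, for INSIG1 and INSIG2, which moved in opposite directions at 16 h, and for ABCA1, which rose. Each stretch is the 200 bases before the gene's most upstream start in RefSeq (GRCh38.p14), 5′ to 3′ on the gene's strand. Capitals mark CCAAT or its complement ATTGG, the box that NF-Y binds next to SREBP sites, and exact matches to the sterol element written as TCACNCCAC. Sites with other letters are not marked.
HMGCS1, chr5:43313413-43313612, minus strand: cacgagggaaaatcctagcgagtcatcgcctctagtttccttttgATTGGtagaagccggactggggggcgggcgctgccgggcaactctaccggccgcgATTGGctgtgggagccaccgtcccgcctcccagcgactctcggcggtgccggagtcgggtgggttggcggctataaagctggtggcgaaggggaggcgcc
FDPS, chr1:155308666-155308865, plus strand: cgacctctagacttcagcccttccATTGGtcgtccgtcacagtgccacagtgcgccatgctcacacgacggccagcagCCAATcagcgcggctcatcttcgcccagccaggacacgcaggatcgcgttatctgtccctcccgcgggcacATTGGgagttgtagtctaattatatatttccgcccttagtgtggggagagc
SREBF2, chr22:41832905-41833104, plus strand: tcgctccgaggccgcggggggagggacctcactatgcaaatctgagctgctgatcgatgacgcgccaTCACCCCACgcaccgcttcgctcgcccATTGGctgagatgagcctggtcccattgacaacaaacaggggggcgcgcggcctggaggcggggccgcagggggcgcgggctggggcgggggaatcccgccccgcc
INSIG1, chr7:155297678-155297877, plus strand: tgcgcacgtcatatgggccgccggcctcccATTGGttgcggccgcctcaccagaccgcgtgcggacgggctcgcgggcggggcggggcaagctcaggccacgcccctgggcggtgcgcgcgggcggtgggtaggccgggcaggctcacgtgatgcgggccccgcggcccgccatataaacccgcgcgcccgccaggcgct
INSIG2, chr2:118088271-118088470, plus strand: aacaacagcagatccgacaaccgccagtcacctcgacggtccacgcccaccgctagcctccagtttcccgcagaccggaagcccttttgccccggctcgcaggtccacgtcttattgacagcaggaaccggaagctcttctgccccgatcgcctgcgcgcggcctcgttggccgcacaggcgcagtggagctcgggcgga
ABCA1, chr9:104928156-104928355, minus strand: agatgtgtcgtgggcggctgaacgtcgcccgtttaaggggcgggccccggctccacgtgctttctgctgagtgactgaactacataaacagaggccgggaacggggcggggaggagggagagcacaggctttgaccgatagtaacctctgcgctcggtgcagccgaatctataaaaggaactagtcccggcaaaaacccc

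RefSeq windows, from 250 bases before to 50 after the start, were found for 24 of the 28 members. FDFT1, SQLE, ACAT2 and ABCG1 have none. Some genes have more than 1 window, and a gene was counted if any of its windows held the letters. Searched on both strands, CCAAT stood in the windows of 14 of 16 synthesis enzymes and of 3 of the 8 other members, SREBF2, INSIG1 and STARD4. The same letters stood in 43.7% of 9198 genes tested in the culture table. The windows of PMVK, CYP51A1, INSIG2, SCAP, LPIN1, NPC1 and ABCA1 do not hold them. TCACNCCAC was found in SREBF2 alone, 133 bases before its start, with ATTGG at 106 bases, against 1.54% of tested genes. The GC box GGGCGG, which Sp1 binds, was found for 23 of the 24 members and for 77.5% of tested genes. The LXR element, searched as AGGTCA repeated after a gap of 4 bases, stood in none of the 24 and in 0.0109% of tested genes. That search allowed no mismatch and matched 1 of 9198 tested genes, so it cannot show that a site is absent. In the members' windows 0 pairs of matches to different motifs shared bases. A match describes letters only. All searches were exact, so a member without TCACNCCAC is not shown to lack a sterol element.

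Library totals of recovered reads were 6104222 to 14781941 in the culture table, 38635418 to 62218847 in the siSCIRT table and 27989577 to 38955312 in the siEZH2 table. SCIRT, listed as RP5-1120P11.1, had 120.6, 111.6 and 126.8 normalized counts with siSCIRT 1 and 159.3, 104.6 and 117.4 with siSCIRT 2, against 264.4, 286.8 and 255.5 with siNC. EZH2 had 275.0 and 277.7 with siEZH2, against 518.1 and 529.3 with its siNC. Of the receptor genes behind the label triple-negative, ESR1 had at most 1.5 normalized counts in the culture table and ERBB2 had 566.0 to 728.2. PGR was not listed there. The mesenchymal gene VIM had 31546.9 to 32152.7 in adherent cells, 61240.8 to 62200.8 at 16 h and 33890.4 to 34382.7 at 5 d. EPCAM had 89.8 to 93.8, 23.2 to 25.6 and 81.8 to 92.4 in the same order. CDH1 had 18.3 to 21.1, 0.0 to 1.2 and 0.0 to 9.2. The summed level of 7 listed blood and stromal markers of a list of 10 was 95.2 to 108.4 in adherent cells, 1153.1 to 1182.2 at 16 h and 107.8 to 127.9 at 5 d. At 16 h, 999.0 to 1013.6 of it was DCN, and the leukocyte gene PTPRC was listed at 0. Mitochondrial genes took 6.83 to 6.89% of reads in adherent cells, 8.55 to 8.56% at 16 h and 9.65 to 9.74% at 5 d. The part of these differences in the results below was not tested. In bulk RNA, fewer cells that express a gene and less of its RNA per cell cannot be told apart. Nothing in the labels ties replicates to cultures grown apart, so each p-value reflects the scatter of the libraries at hand, which may be technical.

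The first comparison asks what happened to the pathway when adherent cells were put into sphere culture for 16 h. RNA of nearly all the enzymes was lower. Of 27 members tested, 22 fell and 2 rose in 16 h spheres against adherent cells, where 26.5% of all 13789 tested genes fell and 27.4% rose, 53.9% together (limma, Benjamini-Hochberg adjusted p under 0.05 over all genes, two-sided). Among the 19 synthesis enzymes, 17 fell, and the median log2 fold change was -0.98, whereas the median over all tested genes was -0.0061. A fall of at least 2-fold was called for 8 members, all of them enzymes, and for 8.6% of tested genes. The enzymes together took 0.121 and 0.123% of reads at 16 h, against 0.296 and 0.294% in adherent cells, and these groups do not overlap.

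**Figure D1:**
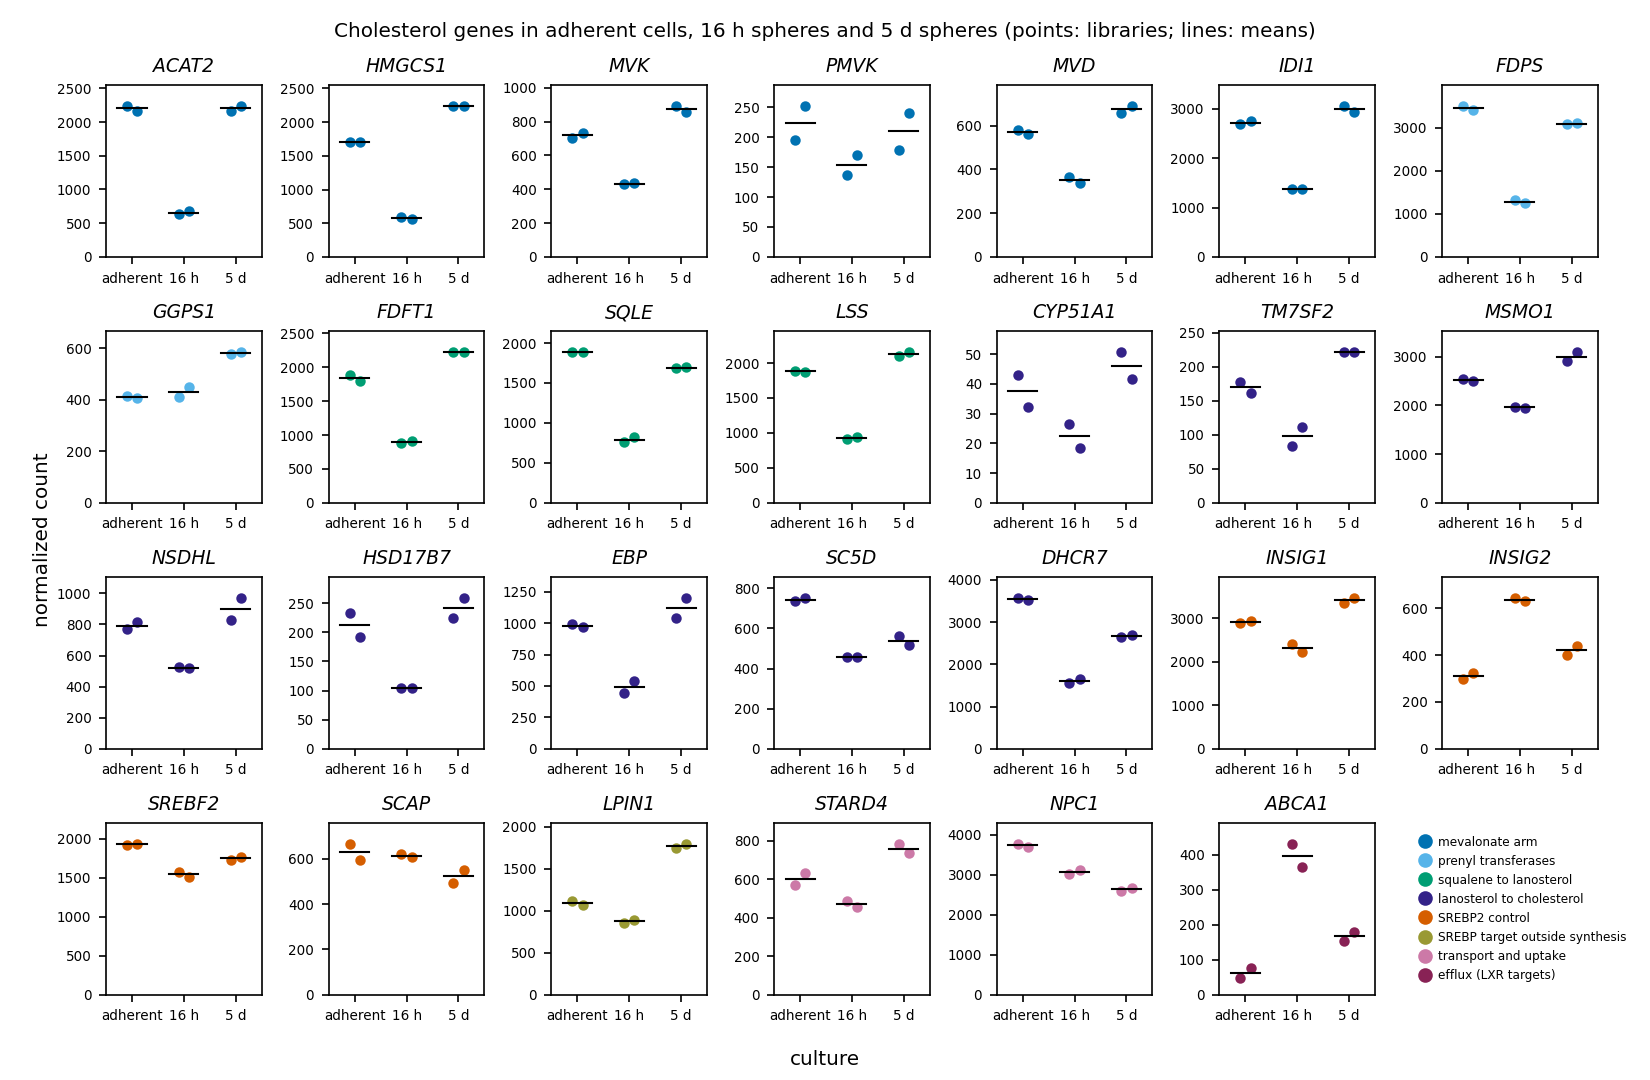
Normalized counts of the 27 members in the culture table (y axis, linear, from 0), by culture (x axis), with 1 point per library and a line at the mean of 2. Nearly all enzymes dip at 16 h, as HMGCS1 does with 588.4 and 555.7, while INSIG2 and ABCA1 peak there.

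The mevalonate arm fell in all 6 of its members. ACAT2, the thiolase that joins acetyl-CoA units in the cytosol, had 2234.4 and 2167.4 normalized counts in adherent cells, 642.7 and 674.2 at 16 h and 2167.6 and 2236.9 at 5 d. HMGCS1, which makes HMG-CoA, had 1701.6 and 1705.3 in adherent cells, 588.4 and 555.7 at 16 h and 2238.0 and 2238.5 at 5 d. In both genes the 16 h libraries lie far below the other libraries, with no overlap. Their log2 fold changes at 16 h were -1.74 ± 0.053 and -1.57 ± 0.056 (SE), with limma adjusted p of 2.67e-26 and 4.05e-24. The reads of ACAT2 may include some of TCP1 and SOD2, which overlap it on the other strand, since the kit does not mark strand. The same limit holds for MVK, which overlaps MMAB, and for NPC1, which overlaps RMC1, both on the other strand. HMGCS1, IDI1, FDPS, FDFT1, LSS, SREBF2, STARD4 and LPIN1 also overlap other genes on the other strand. IDI1, the isomerase that makes dimethylallyl diphosphate, had 2690.1 and 2752.5 in adherent cells, 1371.8 and 1380.1 at 16 h and 3056.9 and 2927.1 at 5 d, a log2 change of -0.98 at 16 h. The kinases MVK and PMVK and the decarboxylase MVD, which turn mevalonate into isopentenyl diphosphate, changed less, by -0.73, -0.53 and -0.71. PMVK was the least stable, and its call at 16 h was lost without adherent replicate 2 or without 16 h replicate 1 (adjusted p up to 0.183).

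The prenyl transferases parted from each other. FDPS, which makes farnesyl diphosphate, had 3498.3 and 3399.1 in adherent cells, 1319.6 and 1244.5 at 16 h and 3074.5 and 3105.8 at 5 d. Its log2 change at 16 h was -1.43 ± 0.043 (SE, limma adjusted p = 1.50e-26). GGPS1, which adds a further unit for protein prenylation and lies off the sterol route, had 413.5 and 406.7 in adherent cells, 410.4 and 450.7 at 16 h and 576.6 and 585.4 at 5 d. The first pairs overlap and the 5 d libraries lie above them, with a log2 change of 0.07 at 16 h (95% interval -0.12 to 0.26) and of 0.50 at 5 d against adherent cells. The reads of GGPS1 may include some of TBCE, which overlaps it on the same strand, and of ARID4B, on the other.

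From squalene to lanosterol, all 3 enzymes fell at 16 h by at least 2-fold. SQLE, the monooxygenase that oxidizes squalene and a slow step of the pathway, had 1885.7 and 1886.8 in adherent cells, 756.8 and 826.8 at 16 h and 1682.2 and 1699.3 at 5 d. FDFT1, the squalene synthase, had 1891.8 and 1802.7, then 888.9 and 908.7, then 2220.4 and 2223.1 at the same stages. LSS, which closes the rings, had 1892.5 and 1868.5, then 912.4 and 940.4, then 2095.2 and 2156.8. All show the same dip with no overlap, and the log2 changes at 16 h were -1.25, -1.04 and -1.02. At 5 d SQLE was still 0.16 below adherent cells on the log2 scale, whereas FDFT1 was 0.27 and LSS 0.18 above.

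Of the 8 enzymes from lanosterol to cholesterol, 7 fell at 16 h. DHCR7, the reductase that can make cholesterol as its product, had 3570.8 and 3531.8 in adherent cells, 1548.7 and 1651.2 at 16 h and 2657.3 and 2702.2 at 5 d. It fell by 1.15 on the log2 scale at 16 h and by 0.41 at 5 d, so the 5 d libraries lie between the other groups. The isomerase EBP and the ketoreductase HSD17B7 each changed by about 2-fold at 16 h, with log2 values of -0.999 and -1.01. The reductase TM7SF2, the desaturase SC5D, the dehydrogenase NSDHL and the monooxygenase MSMO1 changed by -0.81, -0.70, -0.60 and -0.36. TM7SF2 overlaps VPS51 on the same strand, and reads of HSD17B7 may be shared with its pseudogene HSD17B7P2. That pseudogene averaged 11 normalized counts in the culture table, 158.2 in the siSCIRT table and 74.64 in the siEZH2 table. CYP51A1, the lanosterol demethylase, had 43.0 and 32.3 in adherent cells, 26.6 and 18.3 at 16 h and 50.7 and 41.6 at 5 d. It overlaps AC000120.2 and AC000120.3 on the same strand and CYP51A1-AS1 on the other. Its 16 h values rest on 25 and 15 reads, and its log2 change of -0.73 missed the threshold (adjusted p = 0.0681, 95% interval -1.41 to -0.041).

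The control genes moved in different directions. INSIG1 had 2893.9 and 2941.2 in adherent cells, 2411.0 and 2232.6 at 16 h and 3357.1 and 3463.2 at 5 d. INSIG2, an anchor of SCAP that is known to be kept up without SREBP, had 295.8 and 322.7 in adherent cells, 642.7 and 629.0 at 16 h and 399.6 and 439.1 at 5 d. INSIG1 thus has its lowest libraries at 16 h and INSIG2 its highest, with log2 changes of -0.33 ± 0.041 and 1.04 ± 0.097 (SE, limma adjusted p = 9.04e-09 and 1.05e-11). SREBF2, the gene of SREBP2, had 1925.7 and 1931.8 in adherent cells, 1573.2 and 1514.4 at 16 h and 1730.8 and 1767.0 at 5 d. SREBF2 fell by 20.0% at 16 h, less than any of the 17 enzymes that fell. SCAP had 664.0 and 592.4 in adherent cells and 618.2 and 608.2 at 16 h, which overlap, and 491.7 and 551.5 at 5 d.

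Transport and efflux differed too. NPC1, which exports cholesterol from lysosomes, had 3763.9 and 3699.8 in adherent cells, 3028.1 and 3124.1 at 16 h and 2592.1 and 2674.5 at 5 d. It was lowest at 5 d, unlike any enzyme. STARD4, a soluble sterol carrier, had 570.5 and 631.4, then 490.3 and 458.0, then 783.6 and 736.4. ABCA1, which loads cholesterol onto lipoprotein, had 48.3 and 77.3 in adherent cells, 430.6 and 365.2 at 16 h and 154.2 and 180.2 at 5 d. The 3 groups are far apart, and the log2 change was 2.68 ± 0.182 at 16 h and 1.43 ± 0.182 at 5 d (SE, limma adjusted p = 3.44e-15 and 2.43e-08). LPIN1, a phosphatidate phosphatase that SREBP also activates, had 1111.5 and 1071.5 in adherent cells, 854.8 and 891.6 at 16 h and 1744.3 and 1793.2 at 5 d.

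**Figure D2:**
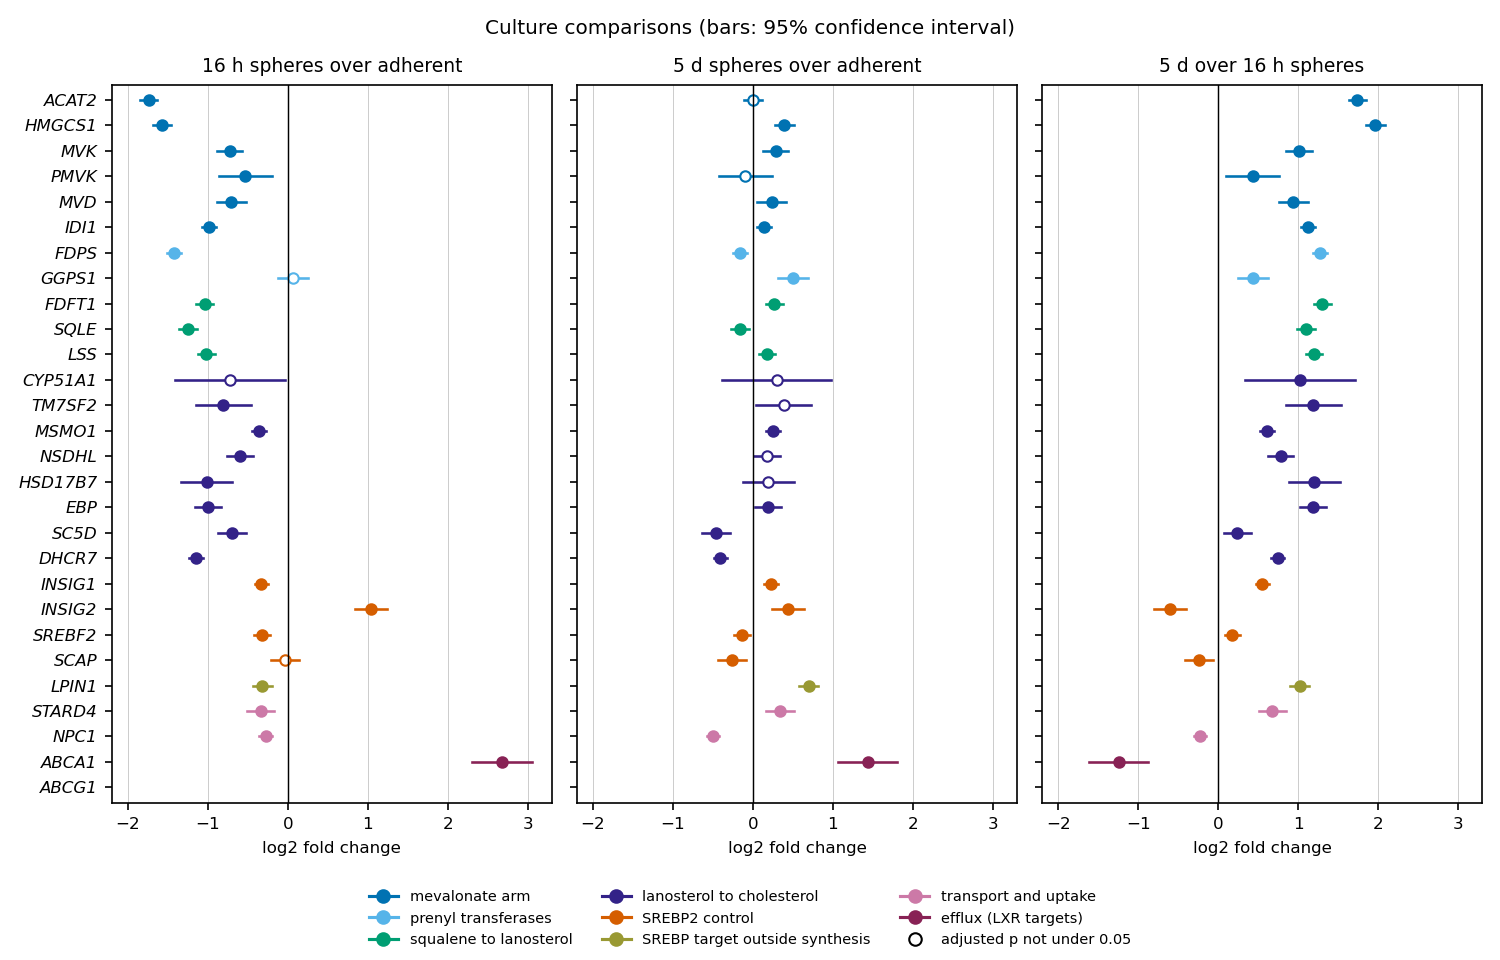
Log2 fold change of each member (x axis) by gene in pathway order (y axis), with the 95% confidence interval of the limma fit and open points where the adjusted p was not under 0.05. All enzymes but GGPS1, at 0.07, lie left of 0 at 16 h against adherent cells. Most lie near 0 at 5 d against adherent cells, and right of 0 at 5 d against 16 h, where HMGCS1 reaches 1.97.

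By 5 d the enzymes were back near their adherent level. Against 16 h spheres, 23 members rose in 5 d spheres and 4 fell, where 22.8% of all tested genes rose and 25.5% fell, 48.3% together. All 19 enzymes rose, with a median log2 change of 1.10, against 0.00051 over all tested genes. A rise of at least 2-fold was called for 13 members and 5.22% of tested genes. The 4 that fell were INSIG2, ABCA1, NPC1 and SCAP. Calls of CYP51A1, PMVK, SC5D and SCAP were lost in 2 or 3 of the 6 fits that left out a library. This comparison shares the 16 h libraries with the first, so it adds no independent sign of their level.

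Against adherent cells, 14 members were higher and 7 lower at 5 d, where 26.3% of all tested genes were higher and 28.9% lower, 55.2% together. The enzymes took 0.294 and 0.297% of reads at 5 d, against 0.296 and 0.294% in adherent cells, and these overlap. Most differences were small, with a median log2 change of 0.19 over the members and -0.017 over all tested genes. HMGCS1, at 0.39, and GGPS1, at 0.50, were the highest of the enzymes, and SC5D, at -0.46, and DHCR7, at -0.41, the lowest. LPIN1 was higher by 0.70 and NPC1 lower by 0.50 on the log2 scale. Calls of EBP, MVD, SQLE and SREBF2 were each lost in 3 of 6 fits that left out a library. With eBayes without trend and robust, 12 members were called, and over all tested genes 3058 were called higher and 3266 lower.

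**Figure D3:**
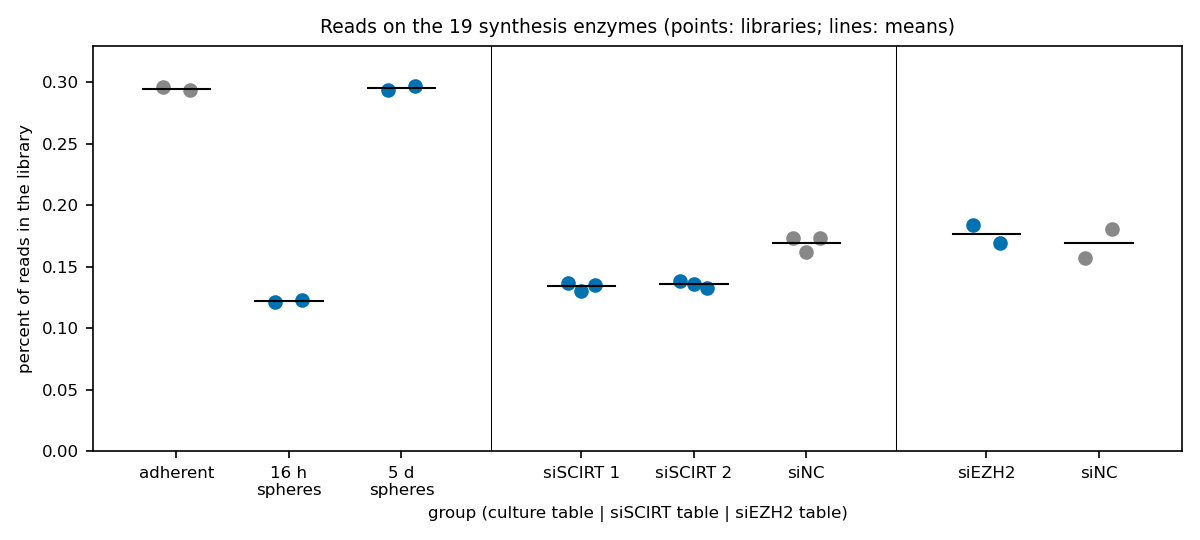
Share of each library's reads on the 19 synthesis enzymes (y axis, percent, from 0) by group (x axis, 3 tables set apart by lines), with 1 point per library and a line at the mean. The share is 0.121 to 0.123% at 16 h against 0.294 to 0.296% in adherent cells, and 0.130 to 0.138% with either siSCIRT against 0.162 to 0.173% with siNC.

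The second experiment asks what the loss of SCIRT does to spheres of 48 h. With siSCIRT 1, 14 members fell and 1 rose of 28 tested, where 5.56% of all 16607 tested genes fell and 4.63% rose, 10.2% together. With siSCIRT 2, 12 fell and none rose, where 5.05% of tested genes fell and 4.49% rose, 9.54% together (limma). The median log2 change of the enzymes was -0.33 and -0.26, with 0.0094 and 0.0053 over all tested genes. The enzymes took 0.137, 0.130 and 0.135% of reads with siSCIRT 1 and 0.138, 0.136 and 0.133% with siSCIRT 2, against 0.173, 0.162 and 0.173% with siNC. Both siRNA groups lie below every siNC library. Mitochondrial genes took 5.76 to 6.11% of reads with siSCIRT 1 and 5.54 to 6.11% with siSCIRT 2, against 6.11 to 6.6% with siNC. The 8 listed blood and stromal markers of 10 summed to 2019.8 to 2157.4 normalized counts with siSCIRT 1 and 1938.3 to 2009.2 with siSCIRT 2, against 1771.2 to 2013.9 with siNC. Of these CD14 had 783.8 to 880.5 with siSCIRT 1 and 660.9 to 783.1 with siSCIRT 2, against 534.0 to 649.4 with siNC, and no marker was at 0. The part of these differences in the result was not tested. The siRNAs share their siNC libraries, so their results are not independent of each other.

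In the mevalonate arm, HMGCS1 had 7075.8, 6629.9 and 7093.4 normalized counts with siSCIRT 1 and 6747.1, 6944.7 and 6912.4 with siSCIRT 2, against 10742.7, 10420.7 and 11033.1 with siNC. No siSCIRT library reaches the siNC range, and HMGCS1 fell by 35.4% with siSCIRT 1 and by 36.0% with siSCIRT 2 (limma adjusted p = 1.45e-05 and 2.51e-05). ACAT2 had 3034.3, 3010.2 and 3099.7 with siSCIRT 1 and 3129.5, 3112.4 and 3193.1 with siSCIRT 2, against 4518.9, 3811.8 and 5056.0 with siNC. The siSCIRT libraries are close together and the siNC libraries spread. IDI1 changed by -0.38 and -0.45 on the log2 scale, and MVK by -0.35 and -0.32, with siSCIRT 2 libraries of MVK overlapping siNC. MVD, with -0.27 and -0.26, missed the threshold (adjusted p = 0.118 and 0.14), and PMVK had 0.06 and 0.0050.

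Further down, SQLE had 1721.4, 1486.5 and 1580.0 with siSCIRT 1 and 1617.0, 1879.3 and 1689.1 with siSCIRT 2, against 2448.5, 2409.2 and 2483.7 with siNC. FDFT1 had 5684.0, 5253.0 and 5261.9 with siSCIRT 1 and 5328.9, 5415.3 and 5299.2 with siSCIRT 2, against 7617.3, 6624.5 and 7740.5 with siNC. Neither gene has a siSCIRT library within the siNC range, and the log2 changes were -0.62 and -0.50 for SQLE and -0.44 and -0.45 for FDFT1. DHCR7 had 10198.5, 9709.4 and 9183.8 with siSCIRT 1 and 9985.9, 9592.0 and 9796.7 with siSCIRT 2, against 13444.0, 11763.6 and 12854.8 with siNC. FDPS, LSS, EBP and SC5D also fell with both siRNAs, by 0.23 to 0.40 on the log2 scale. NSDHL and HSD17B7 passed with siSCIRT 1 alone, at -0.27 and -0.29, against -0.21 and -0.19 with siSCIRT 2. These siSCIRT 1 calls were lost in 5 of 9 fits that left out a library for NSDHL and in 4 of 9 for HSD17B7. TM7SF2, GGPS1, MSMO1 and CYP51A1 passed with neither, and TM7SF2 had 0.19 and 0.17.

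Among the control genes, INSIG1 had 10163.1, 8325.5 and 8713.0 with siSCIRT 1 and 9560.0, 9500.8 and 8903.1 with siSCIRT 2, against 14726.4, 13875.0 and 13308.5 with siNC. INSIG1 fell by 35.3% with siSCIRT 1 and by 33.3% with siSCIRT 2, about as much as HMGCS1, with no overlap. SREBF2 had 12416.8, 13255.7 and 12483.2 with siSCIRT 1 and 12865.7, 13047.6 and 13382.5 with siSCIRT 2, against 14888.0, 13839.2 and 14441.2 with siNC. These groups do not overlap, but the log2 changes of -0.18 and -0.14 missed the threshold (limma adjusted p = 0.0773 and 0.186). INSIG2 had changes of 0.29 and 0.14, SCAP of -0.02 and 0.07, NPC1 of 0.05 and 0.12, STARD4 of -0.05 and 0.07 and LPIN1 of -0.09 and -0.04, and none of these passed.

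ABCA1 had 5176.7, 5608.0 and 5231.7 with siSCIRT 1 and 4765.4, 4529.2 and 5596.7 with siSCIRT 2, against 4127.2, 4930.5 and 3920.9 with siNC. The siSCIRT 1 libraries lie above all siNC libraries, and the siSCIRT 2 libraries overlap them. Its log2 change of 0.31 passed narrowly with siSCIRT 1 (limma adjusted p = 0.0427), that of 0.20 with siSCIRT 2 did not (0.200), and the first call was lost in 5 of 9 fits that left out a library. ABCG1, its partner in efflux, had 34.3, 39.2 and 45.7 with siSCIRT 1 and 46.2, 59.0 and 34.4 with siSCIRT 2, against 36.1, 28.5 and 32.9 with siNC, which overlap.

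**Figure D4:**
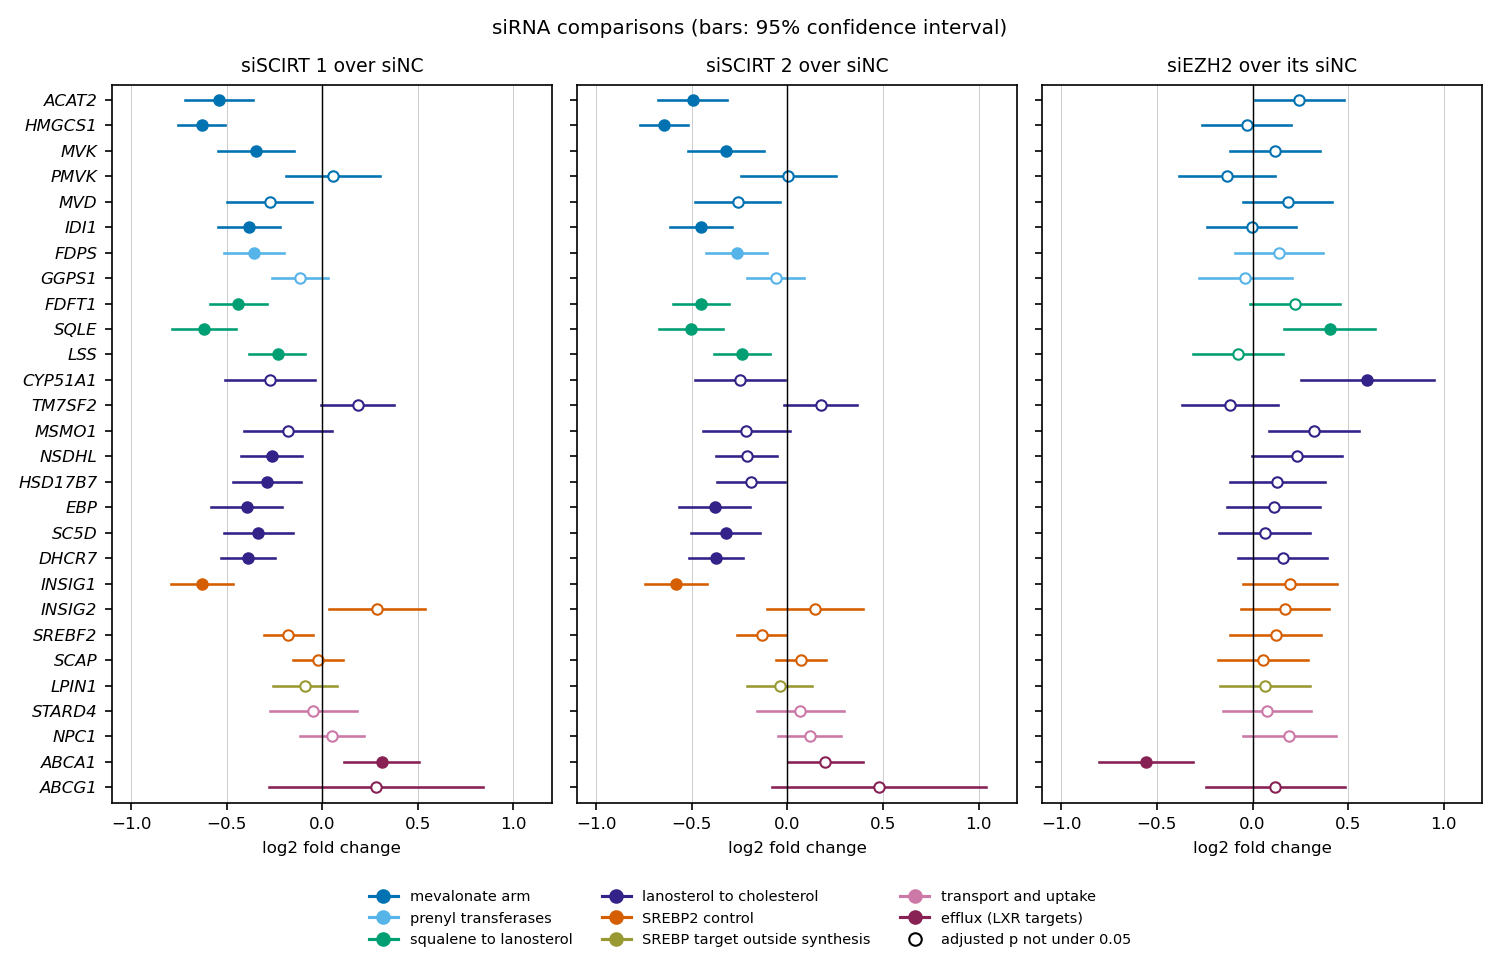
Log2 fold change of each member (x axis) by gene in pathway order (y axis) for siSCIRT 1, siSCIRT 2 and siEZH2, each against siNC of its own table, with the 95% confidence interval and open points where the adjusted p was not under 0.05. HMGCS1 and INSIG1 are far to the left with both siSCIRT, and ABCA1 is to the left with siEZH2, at -0.56.

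The siRNAs against SCIRT were then set against each other. Of 16607 genes, 0 (0%) passed between siSCIRT 1 and siSCIRT 2 by limma and 0 by edgeR, with 451 and 431 genes at an unadjusted p under 0.05. DESeq2 called 1 gene higher and 5 lower. No member was called by any of these tools, and none of the 451 is a member. The members' log2 differences ran from -0.20 to 0.14. For HMGCS1 the 95% interval of the difference was -0.11 to 0.14. Taking the mean of both siRNAs, 14 members fell and 1 rose, where 7.58% of tested genes fell and 6.82% rose, 14.4% together. Without siNC replicate 1, 9 members were called with siSCIRT 1 and 7 with siSCIRT 2. Without siNC replicate 3, 7 were called with siSCIRT 2. Without siSCIRT 1 replicate 2 or 3, 8 and 9 were called with siSCIRT 1. ACAT2, DHCR7, FDFT1, HMGCS1, IDI1, INSIG1 and SQLE were called with both siRNAs in all 9 fits that left out a library. EBP, LSS, MVK and SC5D lost the call with siSCIRT 1 in 2 to 6 of these fits and with siSCIRT 2 in 3 to 7, and FDPS lost it with siSCIRT 2 in 5.

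**Figure D5:**
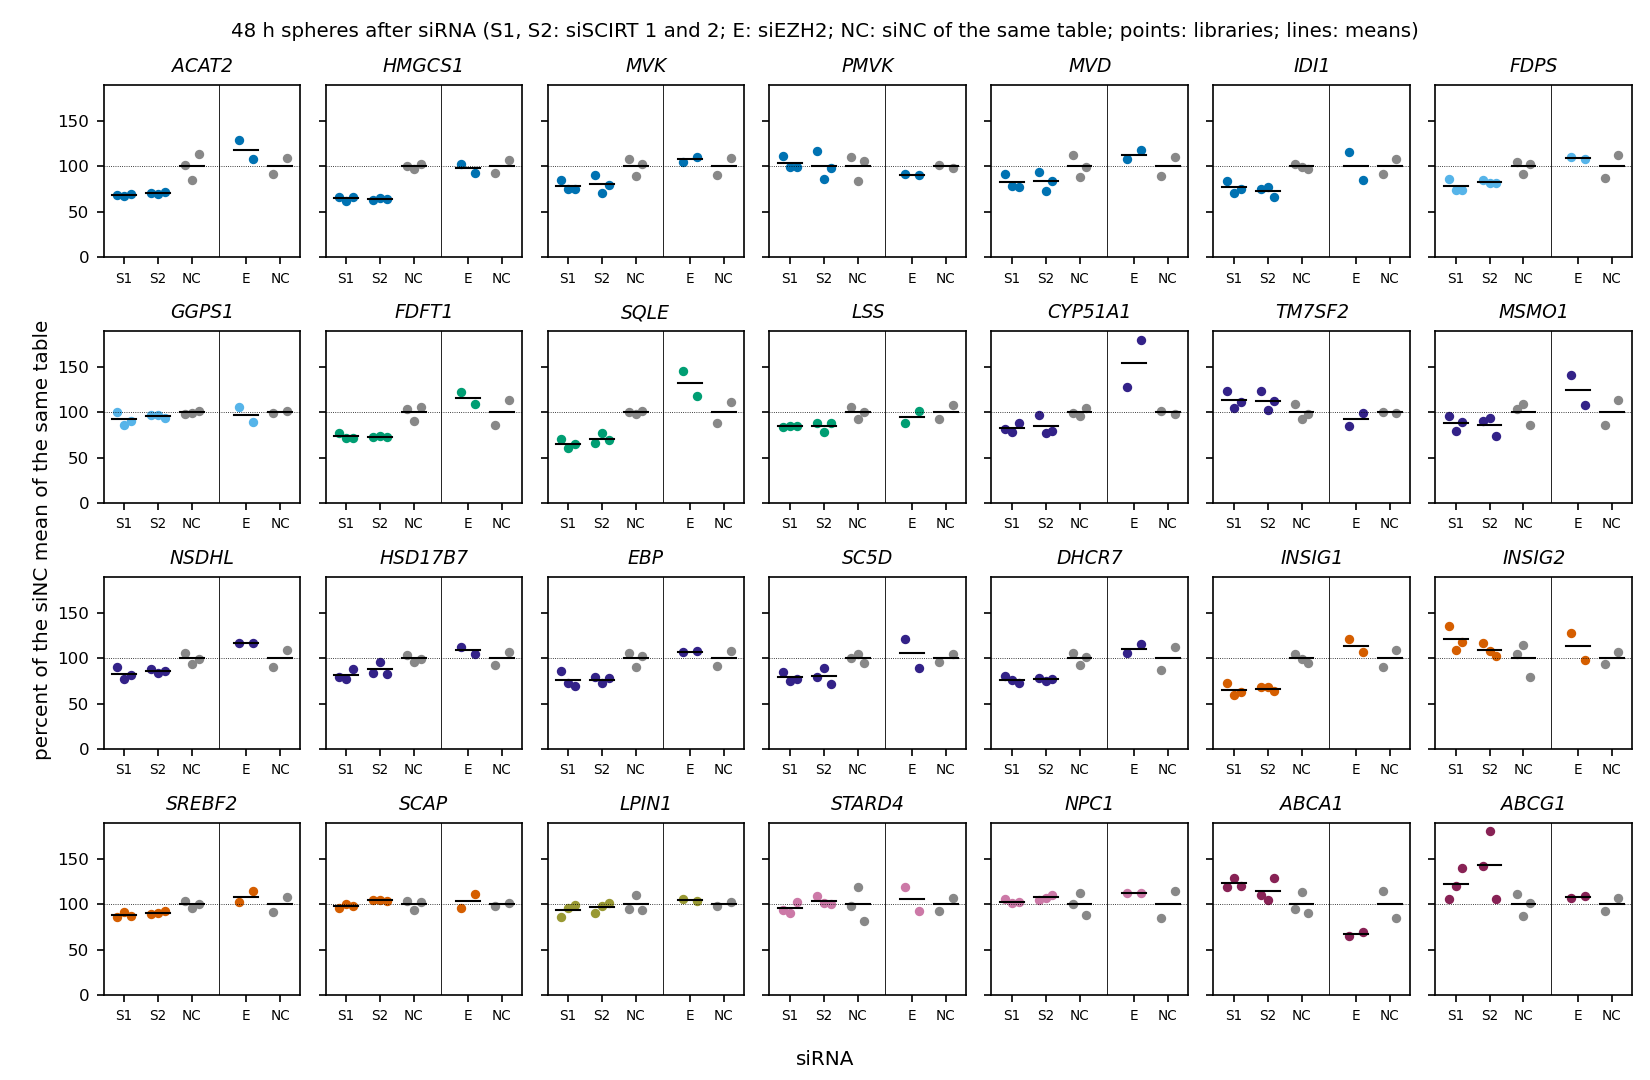
Level of each member in every siRNA library (y axis, linear, as percent of the siNC mean of the same table) for siSCIRT 1 (S1), siSCIRT 2 (S2), siEZH2 (E) and siNC (NC), with 1 point per library and a line at the mean. HMGCS1 lies at 61.8 to 66.1% of siNC with either siSCIRT, while its siNC libraries of the EZH2 table lie at 93.1 and 106.9%.

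The third experiment asks the same of EZH2. The libraries of siNC in that table stand apart from each other, since 24 of 28 members were higher in siNC replicate 2 than in replicate 1, with a median ratio of 1.17. The share over all genes was not computed, so this is not shown to be particular to the pathway. With siEZH2, 2 members rose and 1 fell of 28, where 3.9% of all 15823 tested genes rose and 2.94% fell, 6.84% together. The median log2 change of the members was 0.12, against 0.0090 over all tested genes. Without siNC replicate 1 no member was called and the median was 0, and without siNC replicate 2 the median was 0.24. The enzymes took 0.184 and 0.169% of reads with siEZH2, against 0.157 and 0.181% with siNC, and these overlap. Mitochondrial genes took 4.5% of reads in both siEZH2 libraries, against 4.45 and 4.93% with siNC, and the blood and stromal markers summed to 632.2 to 843.9 with siEZH2, against 616.4 to 764.6 with siNC. Their part in the result was not tested.

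SQLE had 2206.5 and 1797.4 normalized counts with siEZH2, against 1345.1 and 1687.0 with siNC. CYP51A1 had 170.5 and 239.7 with siEZH2, against 135.7 and 130.3 with siNC. ABCA1 had 986.9 and 1043.9 with siEZH2, against 1737.0 and 1283.3 with siNC. In each gene the groups do not overlap, though for SQLE they come close, and the log2 changes were 0.40 ± 0.122, 0.60 ± 0.178 and -0.56 ± 0.125 (SE, limma adjusted p = 0.0200, 0.0168 and 0.000504). Leaving out 1 of 4 libraries at a time ended the call of CYP51A1 in 3 fits, of SQLE in 2 and of ABCA1 in 1. HMGCS1 had 5636.3 and 5120.8 with siEZH2, against 5120.2 and 5882.8 with siNC, and INSIG1 had 17873.3 and 15741.4, against 13342.5 and 16070.7. Both overlap, with 95% intervals of -0.26 to 0.20 and -0.05 to 0.44 on the log2 scale. EZH2 itself was also lower with both siSCIRT, by 0.53 and 0.50 on the log2 scale. Whether the siSCIRT and siEZH2 responses of a member differ was not tested.

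Across experiments, all 12 members that fell with both siSCIRT were among those that fell at 16 h, which is 12 of 12 and 12 of 22. Over all 12683 genes tested in both tables, 645 fell with both siSCIRT, of which 72.2% also fell at 16 h, and 3500 fell at 16 h, of which 13.3% fell with both siSCIRT. Since most members fell at 16 h, a large overlap follows from that count alone. The 10 that fell at 16 h and did not with both siSCIRT were HSD17B7, LPIN1, MSMO1, MVD, NPC1, NSDHL, PMVK, SREBF2, STARD4 and TM7SF2. These tables share no library. Over 27 members, the log2 change at 16 h and that of the mean siSCIRT had a Pearson r of 0.716 and a Spearman rho of 0.731, and over the 19 enzymes of 0.665 and 0.712. This is a description across genes, which are not independent replicates. SCIRT itself rose at 16 h, with 29.3 and 45.8 normalized counts against 3.0 and 3.8 in adherent cells, and fell with both siSCIRT. EZH2 fell in both settings, by 1.63 on the log2 scale at 16 h. The part of either in this likeness was not tested. ABCA1 was high in the siNC libraries of the siSCIRT table, with 3920.9 or more, and such levels cannot be set against those of other tables, which were normalized separately.

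Related lists are read against the shares over all tested genes. These were 27.4% higher and 26.5% lower at 16 h, 26.3% higher and 28.9% lower at 5 d against adherent cells, 6.82% higher and 7.58% lower with the mean siSCIRT, and 3.9% higher and 2.94% lower with siEZH2. The mean siSCIRT called 14.4% of tested genes, against 10.2% with siSCIRT 1 and 9.54% with siSCIRT 2 alone. Of 13 tested genes of fatty acid synthesis, which SREBP1 controls, 11 fell and 1 rose at 16 h against adherent cells, and 9 rose and 1 fell at 5 d. FASN, the fatty acid synthase, had 8092.3 and 8163.1 in adherent cells, 4146.4 and 4365.8 at 16 h and 10643.9 and 10707.8 at 5 d. The other named falls at 16 h were PNPLA3, at -1.22, and ELOVL6, at -0.81, with PNPLA3 at no more than 5.3 normalized counts there. At 5 d the largest rises against adherent cells were PNPLA3, ACSL3 and ACSS2, at 1.41, 1.14 and 0.95. PNPLA3 was low in the other culture groups, so the 5 d libraries carried it past the filter on low values. Its place among the 13 genes tested in culture, and among the 9 that rose, thus depended on that rise. With the mean of both siSCIRT, 5 of 13 fell and none rose, led by ACLY, which makes cytosolic acetyl-CoA, at -0.35, ACACA at -0.26 and FADS2 at -0.25. With siEZH2 the list had 1 fall, GPAM at -0.45.

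Of 17 tested genes of uptake and transport, 7 rose and 9 fell at 16 h. TMEM97, a sterol-responsive protein of the endoplasmic reticulum, had 356.0 and 356.6 at 16 h, against 1070.9 and 1157.6 in adherent cells. The endocytic receptor LRP1 and the lipid transfer protein OSBPL5 rose, by 1.58 and 2.22. At 5 d against adherent cells 5 rose and 7 fell, with OSBPL5 at 1.44, TMEM97 at -1.35 and the receptor VLDLR at 0.96. With the mean siSCIRT 2 of 19 rose and 2 fell, namely LRP1 at 0.40 and OSBPL5 at 0.22, TMEM97 at -0.74 and the receptor LRP8 at -0.39. With siEZH2, TMEM97 rose by 0.54 and LIPA, the lysosomal lipase that frees cholesterol from its esters, had 1352.3 and 1507.1, against 3189.6 and 3622.2 with siNC.

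Among 11 tested genes of LXR signalling and oxysterols, 6 rose and 1 fell at 16 h. CH25H, which makes an oxysterol that blocks SREBP processing, had 68.4 and 79.9 normalized counts at 16 h, against 0 and 2.4 in adherent cells. The 16 h libraries carried CH25H past the filter on low values. Its place among the 11 genes tested in culture thus depended on that rise. CYP27A1, another oxysterol enzyme, and HSD3B7 rose by 1.30 and 0.55. At 5 d 4 rose and 4 fell against adherent cells. With the mean siSCIRT 5 of 12 rose and none fell, led by CH25H at 0.51, CYP27A1 at 0.38 and HSD3B7 at 0.33. With siSCIRT 1 alone 2 rose and with siSCIRT 2 alone 3, where 4.63% and 4.49% of all tested genes rose. CH25H alone rose with siEZH2, with 57.9 and 62.2, against 24.9 and 43.1 with siNC. Of 3 tested genes of cholesterol esters, SOAT1, which makes them, and NCEH1, which splits them, fell at 16 h by 0.64 and 1.09, at 5 d by 0.64 and 0.47, and with the mean siSCIRT by 0.20 and 0.23. Taken alone, siSCIRT 1 had 2 falls called among the 3 and siSCIRT 2 had 0, where 5.56% and 5.05% of all tested genes fell.

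In the remaining lists the share called at 16 h was near the 53.9% of all tested genes. Of 13 genes of SREBP processing, 3 rose and 4 fell, with SEC24A, a coat protein of the vesicles that carry SCAP, at 1.13, PAQR3 at -0.59 and ERLIN1 at 0.39. With the mean siSCIRT 2 rose and 1 fell, MBTPS1, the protease that makes the first cut of SREBP, at 0.30, SEC24A at 0.30 and ERLIN1 at -0.26. With siEZH2 2 rose and 1 fell, ERLIN1 at 0.46, FAF2 at 0.36 and SEC23A at -0.59. Of 12 genes of the isoprenoid branch, 3 rose and 4 fell at 16 h, with the methyltransferase ICMT at -0.90, COQ2 at -0.87 and PDSS1 at -0.81. ICMT rose by 0.42 and NUS1 fell by 0.26 with the mean siSCIRT, and none of the 12 passed with siEZH2.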

How the data were processed

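RNA-seq values of 19 libraries came in 3 tables. Per the submitters' processing notes, CASAVA 1.4, TopHat2, Partek and hg19 were used; the counting program is not given in the sources used here. For the culture and siSCIRT libraries the authors deposited log2 values. Their shared minimum and exact inverse are those of a variance-stabilizing transform of DESeq2, and the inverse gave normalized counts. The siEZH2 values were deposited as a linear signal, reads over a size factor. Dividing by the step between values gave whole reads for 100% of values (tolerance 0.05 reads), used for depth, edgeR 4.0.16 and DESeq2 1.42.0.

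Each table was fitted alone, with all its groups, in limma 3.58.1 (R 4.3.3) on log2(normalized count + 1), keeping genes that averaged 10 or more, with eBayes (trend, robust). A fold change is on that scale, and called means a Benjamini-Hochberg adjusted p under 0.05 over all tested genes, two-sided, in 8 comparisons. The fits were tested on simulated data. Alternatives were another pseudocount, filter, normalization, eBayes setting or tool, a replicate block, the values as deposited, only the compared groups, and each library left out. The design assumed linear values, and the test was kept. Columns without an siRNA number were taken as siSCIRT 1. Every member is named by pathway step, and of each other list up to 3 called genes with the largest change per comparison. Some genes that this rule selects are not reported here. The members, lists and tests were chosen with earlier results of these data known. By the rule used, that every same-numbered pair correlate above 0.1, replicate numbers did not pair libraries, though some pairs in the siSCIRT table did. Overlapping genes are those of GENCODE release 29, by name.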

Additional observations from a re-analysis of the deposited data

Results flagged for a closer look

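A total of 11 members were lower than adherent cells at 16 h and higher at 5 d, so the change against adherent cells differed in sign between the culture times. Of all 13789 tested genes, 210 (1.52%) showed the same pattern. The difference is that of 5 d against 16 h spheres in limma. It passed for each of the 11, as for all 210, which the choice by opposite calls against the same adherent libraries all but fixes, so it supports nothing further. In log2 units it was 1.97 for HMGCS1, 1.01 for MVK, 0.94 for MVD, 1.12 for IDI1, 1.31 for FDFT1, 1.20 for LSS, 0.61 for MSMO1 and 1.19 for EBP among the enzymes. It was 0.56 for INSIG1, 0.68 for STARD4 and 1.02 for LPIN1. In these genes both 5 d libraries lay above both adherent libraries and both 16 h libraries below. The adherent libraries serve both changes. EBP, MVD, IDI1 and LSS lost the call at 5 d against adherent cells in 1 to 3 of 6 fits that left out a library.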

How the results depend on the processing

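No call on a member changed sign under any alternative run. With eBayes without trend and robust, the members called were 12 at 5 d against adherent cells (21 as reported), 8 with siSCIRT 1 (15), 7 with siSCIRT 2 (12) and 0 with siEZH2 (3). With siEZH2, 0 were called without a filter, 1 by DESeq2 and 1 with the replicate block, and the cause was not tested. Over all genes with siEZH2, 0 of 28870 were called without a filter and 0 of 15823 with eBayes without trend and robust. These results are therefore not particular to the members. That eBayes setting called 432 genes higher and 577 lower with siSCIRT 1, and 396 higher and 474 lower with siSCIRT 2. Leaving out each library in turn gave 23 to 24 calls at 16 h against adherent cells, 14 to 22 at 5 d against adherent cells and 24 to 27 at 5 d against 16 h. It gave 8 to 16 with siSCIRT 1, 7 to 12 with siSCIRT 2, 10 to 17 with their mean, 0 between the siRNAs and 0 to 3 with siEZH2. A library left alone in its group is assumed to vary like the others. Same-numbered libraries did not deviate together in culture (r = -0.00379, -0.0198 and -0.00715) or with siEZH2 (-0.014). Against siNC, r for numbers 1, 2 and 3 was 0.548, 0.263 and 0.0256 with siSCIRT 2 and, by the digit in the column name, 0.575, 0.134 and -0.00432 with siSCIRT 1. Against siNC, numbers 1 and 2 thus deviated together and number 3 did not. Between siSCIRT 1 and siSCIRT 2, r by the same digit was 0.539, 0.225 and 0.216, so there number 3 was like number 2. Not every library correlated best with its own number. For siNC 2, r was 0.335 with siSCIRT 1 number 3, against 0.134 with its number 2. The replicate block gave 24, 22 and 27 calls in the culture comparisons and 15 with siSCIRT 2. With that column digit as the block over all 9 libraries, chosen after seeing the data, 19 members were called with siSCIRT 1, 14 with siSCIRT 2, 21 with their mean and 0 between the siRNAs. Calls over all 16607 genes rose too. With siSCIRT 1 they were 1543 higher and 1601 lower, against 769 and 924 without the block. With siSCIRT 2 they were 1552 and 1558, against 746 and 838. In the culture table CYP51A1 rests on 15 to 57 reads.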
